A study of Ovis aries with 18 samples.

Results

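The comparison concerned the length of exposure to short photoperiod (SP), and its members were the 8 sheep of the SP4 and SP16 groups, out of 16 animals in the series. All were neutered male Scottish Blackface sheep, and the tissue was the pars tuberalis (PT). SP4 animals had been held for 4 weeks, and SP16 animals for 16 weeks, on 8 h of light and 16 h of dark a day, with 4 animals in each group. Each animal was sampled once, so that a rise or fall below is a difference between different animals. Any difference in age or sampling date between the groups cannot be told apart from the length of exposure. The 8 animals were chosen by their group labels alone and gave 9 of the 18 libraries, because SP4 animal 1 had a repeat library that was summed with its first. The other 8 animals, kept for 4 weeks (LP4) or 22 weeks (LP22) under long photoperiod (LP), with 16 h of light to 8 h of dark, did not enter the fit that gave the SP results. They are given beside those results and in 2 alternative fits. Each value was the number of RNA-sequencing reads that fell in a gene.

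The PT is the thin sheet of pituitary tissue that surrounds the pituitary stalk and lies against the base of the hypothalamus. Its endocrine cells carry melatonin receptors. The nightly melatonin signal lengthens with the dark phase, and through it the PT reads day length and passes a thyrotropin signal back to the hypothalamus. In sheep held on a constant photoperiod, seasonal physiology goes on changing with time, and the question put by SP16 against SP4 was which PT transcripts differ after a longer stay on the same short days. The deposited counts list genes by Ensembl ID without names, so that the known PT genes and the markers of neighbouring cell types were not looked up, and the tissue label was not checked against markers. In whole tissue, a change in the number of cells of a type and a change of RNA per cell cannot be told apart.

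Depth and library composition were compared between the groups first. Gene counts ran from 1936181 to 2690509 per animal, except in SP4 animal 1, whose summed libraries held 5850281. Reads in genes made up 15.8% to 18.1% of the aligned reads in SP4 and 16.9% to 18.3% in SP16 (exact two-sided permutation test of the means over all 70 splits, p = 0.314, n = 4 and 4). Aligned reads here and below are those counted in a gene, in no gene or as ambiguous, without the other summary lines. The 10 most abundant genes took 38.6% to 44.6% of gene counts in SP4 and 39.2% to 43.3% in SP16 (exact permutation p = 0.971, n = 4 and 4). Neither the total gene count (exact permutation p = 0.486) nor the TMM scaling factor (p = 0.686) differed by this test, whose smallest possible p is 0.0286. On log2 CPM (reads of the gene per 1000000 reads in genes, after scaling), Pearson's r over all tested genes was 0.956 to 0.966 between SP4 animals, 0.954 to 0.964 between SP16 animals and 0.946 to 0.958 between the groups, so that the ranges within and between groups met. The first principal component of log2 CPM, with 21.3% of the variance, nevertheless placed every SP4 animal (-19.35 to -8.64) apart from every SP16 animal (9.02 to 22.66).

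Both libraries of SP4 animal 1, the first and the repeat, differed about as much as libraries of different animals did. Their correlation was 0.945, against 0.942 to 0.950 between the first library and SP4 animals 2 to 4. Between the repeat library and those animals it was 0.944 to 0.947. Of 12434 genes, 40 differed by more than 4-fold between them on the log2(CPM + 1) scale. The corresponding number was 12 to 24 between pairs of SP4 animals 2 to 4, and 54 to 79 between the first library and those animals. For the repeat library and those animals it was 38 to 52. The repeat library supplied 4119508 of the 5850281 summed counts. Its 10 most abundant genes took 47.05% of its gene counts, against 38.85% in the first library. The first library was the higher in 27 of the 40 genes and lay above all of SP4 animals 2 to 4 in 20 of these. The labels name the second library only as a repeat, and whether both came from the same animal was not tested. For the contrast itself, each library taken alone lay beyond every SP16 animal for all 8 genes called below, but the calls moved. With the first library alone 10 genes were called, 6 of them among the 8, and ENSOARG00000010135 was not past the threshold (edgeR FDR = 0.0814). With the repeat library alone 5 genes were called, all among the 8.

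Few single genes differed between SP16 and SP4 past the adjusted threshold. Of 12434 genes tested by edgeR's quasi-likelihood test with Benjamini-Hochberg adjustment, 8 passed an adjusted p (FDR) of 0.05, which is 0.0643% of those tested. Of these, 4 were higher in SP16 (0.0322%) and 4 were lower (0.0322%). Absolute log2 fold changes of the 8 genes ran from 0.72 to 2.77. In all 8 genes every SP16 animal lay beyond every SP4 animal, a separation that 6.68% of all tested genes also showed (3.41% higher and 3.27% lower in SP16). With no difference between the groups, a share of 0.0286 of genes would be expected to separate in this way. The excess over that share was not tested.

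The gene with the lowest p, ENSOARG00000010858, was higher after 16 weeks. It stood at 9.38, 15.4, 16.7 and 9.81 CPM in SP4 animals 1 to 4, and at 38.9, 38.3, 54.3 and 52.4 CPM in SP16 animals 1 to 4. The lowest SP16 animal thus lay well above the highest SP4 animal. The group means were 12.8 ± 3.77 and 45.9 ± 8.57 CPM (SD, n = 4 each), a 3.73-fold rise (log2 fold change 1.90, SE 0.20, edgeR FDR = 0.00267).

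ENSOARG00000013521 also rose, from 38.6, 39.7, 39.2 and 48.1 CPM in SP4 animals 1 to 4 to 67.4, 76.5, 75.4 and 71.9 CPM in SP16 animals 1 to 4. Between these animal values the spread was small on both sides, with SP4 animal 4 nearest to the SP16 range. The value of SP4 animal 1 is, however, a blend of unlike libraries. Scaled singly, its first library stood at 54.9 CPM, nearer to the SP16 range than SP4 animal 4, and its repeat at 30.8 CPM. The mean went from 41.4 ± 4.49 to 72.8 ± 4.09 CPM (SD, n = 4 each), 1.77-fold (log2 fold change 0.82, SE 0.10, edgeR FDR = 0.00844).

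Among the genes that fell, ENSOARG00000000131 had the lowest p. Its values were 62.5, 49.9, 50.2 and 64.9 CPM in SP4 animals 1 to 4 and 27.2, 31.2, 33.6 and 26.5 CPM in SP16 animals 1 to 4. All 4 SP16 animals were below the lowest SP4 animal. Means of 56.9 ± 7.97 and 29.6 ± 3.38 CPM (SD, n = 4 each) corresponded to -0.94 on the log2 scale (SE 0.13, edgeR FDR = 0.0142).

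ENSOARG00000010135 fell from 33.7, 42.2, 31.5 and 33.2 CPM in SP4 animals 1 to 4 to 18.3, 16.6, 17.9 and 16.9 CPM in SP16 animals 1 to 4. The SP16 animals were close to each other and each lay under all SP4 animals. In SP4 animal 1 the summed value again blends unlike libraries. Scaled singly, the first stood at 22.74 CPM, nearer to the SP16 range than any SP4 animal, and the repeat at 39.35 CPM. Means were 35.2 ± 4.82 and 17.4 ± 0.772 CPM (SD, n = 4 each), which is a 2.01-fold lower level in SP16 (log2 fold change -1.01, SE 0.14, edgeR FDR = 0.0142).

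**Figure D1:**
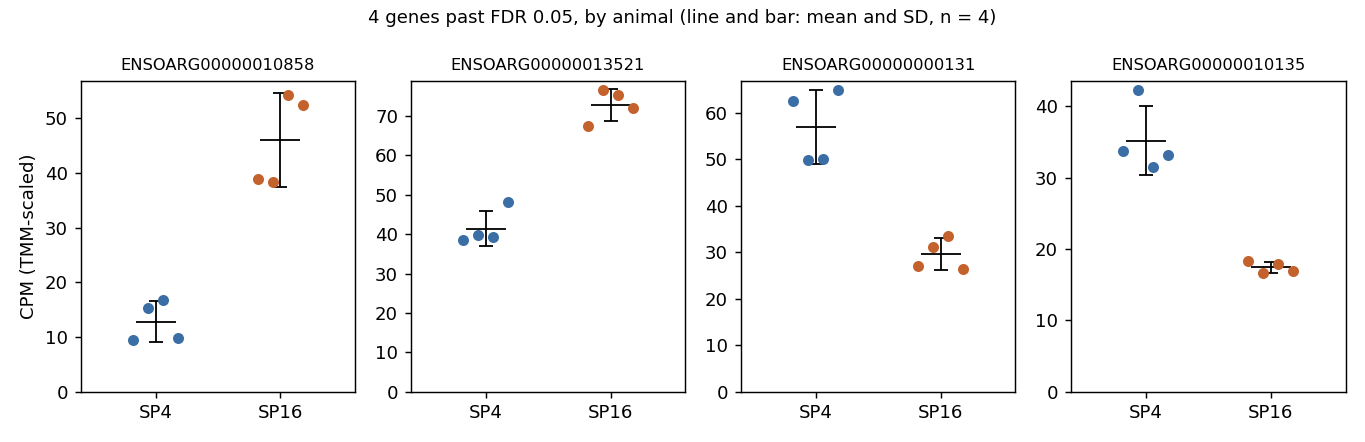
CPM on the TMM scale of the 8 animals (y axis, linear from 0) for the 2 genes called higher and the 2 called lower with the lowest p, with 1 point per animal and the mean and SD of each group (n = 4). In each panel the SP4 and SP16 points do not overlap, and ENSOARG00000010858 has the widest separation, with means of 12.8 and 45.9 CPM.

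The remaining 4 called genes comprised 2 that rose and 2 that fell, and they are given without IDs, since IDs were printed only for the 2 genes with the lowest p in each direction. The largest fold change among the 8 was in a gene of low level in SP4, at 5.70, 3.41, 4.30 and 6.54 CPM, which rose to 52.9, 46.8 and 34.4 CPM in SP16 animals 1, 2 and 4 and to 9.29 CPM in SP16 animal 3 (log2 fold change 2.77, SE 0.45, edgeR FDR = 0.0379). SP16 animal 3 was thus near the SP4 values while the other SP16 animals were far above them. The other gene that rose was even within SP4, at 33.1 to 34.6 CPM, and at 45.0 to 62.1 CPM in SP16 (log2 fold change 0.72, SE 0.11, edgeR FDR = 0.0379). Of the genes that fell, the first was at 41.6 to 61.4 CPM in SP4 and 17.1 to 25.4 CPM in SP16 (log2 fold change -1.12, edgeR FDR = 0.0218), and the second at 43.9 to 80.4 CPM in SP4 and 22.7 to 31.8 CPM in SP16 (log2 fold change -1.13, edgeR FDR = 0.0319).

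Over the 12434 genes most estimated changes were small. TMM scaling centres the log2 fold changes near 0 by construction (median -0.001). The median absolute value was 0.16, and the 5th and the 95th percentiles were -0.43 and 0.48. A log2 fold change of 1 or more in either direction was estimated for 119 genes, and 5 of these passed the test. For 11055 genes (88.9%) the 95% interval of the change lay wholly within a 2-fold rise and a 2-fold fall. For the other genes the interval reached a 2-fold change or more, which this depth and spread did not bound. At an unadjusted p under 0.05 there were 1562 genes (12.6%), of which 827 were higher (6.65%) and 735 lower (5.91%) in SP16. With no difference between the groups, a share of 0.05 would be expected on average. Genes vary together, and the excess over that share was not tested.

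**Figure D2:**
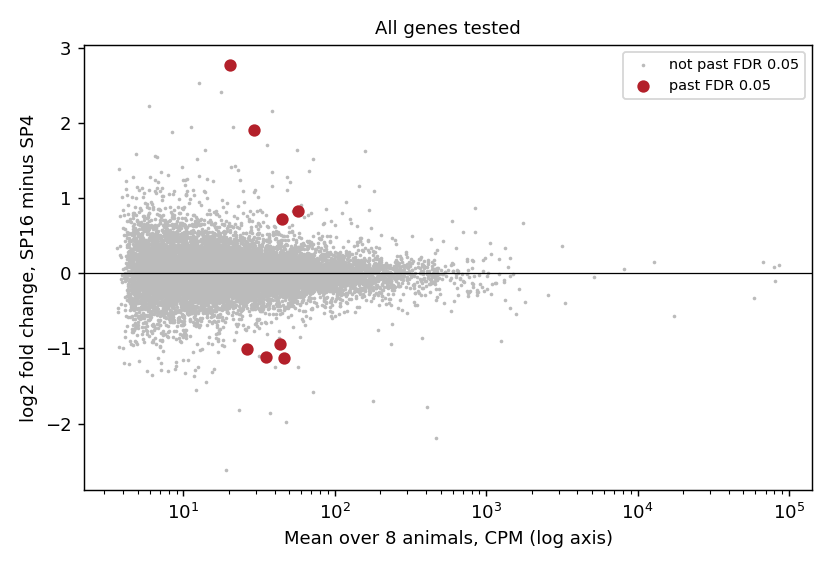
Log2 fold change of SP16 minus SP4 (y axis) against mean CPM over the 8 animals (x axis, log scale), with 1 point per gene and the genes past FDR 0.05 in red. The 8 called genes (4 above and 4 below 0) lie outside a band that narrows with level, with a 95th percentile of the absolute change of 0.76 in the lowest-level group of genes and 0.41 in the highest.

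Precision followed the level of a gene. Among the 3109 genes with the lowest means (3.66 to 10.3 CPM) the median SE of the log2 fold change was 0.28 and none was called, while 291 had an unadjusted p under 0.05. Among the 3109 with the highest means (45.2 CPM and above) the median SE was 0.10, and 2 genes were called. The 95% interval lay within a 2-fold change either way for 68.6% of the former and 98.2% of the latter. In counts simulated for SP16 against SP4 over 12172 genes, the same test recovered 82.3% of genes changed 2-fold and 100% of those changed 4-fold. The simulation changed 200 genes and gave 183 calls, against 8 in the data, and many true changes ease the FDR threshold. It also held no animal that stood apart from its group. The recovered shares therefore do not give the share of real changes that the test found here.

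The type of test set how many genes were called. The edgeR exact test, which does not add gene-wise uncertainty of the spread, called 145 genes (1.17% of those tested), 100 higher (0.804%) and 45 lower (0.362%). DESeq2's Wald test called 73 genes, 54 higher and 19 lower, and limma-voom called 4. The 8 genes above were called by the exact test and by DESeq2, and 4 of them by limma-voom. The quasi-likelihood calls were evenly divided between the directions, while more genes were higher than lower in SP16 with the exact test and with DESeq2.

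SP16 animal 3 decided much of this count. Without it, edgeR's quasi-likelihood test called 85 of 12637 genes (0.673%), 79 higher (0.625%) and 6 lower (0.0475%), and these included all 8 genes called with every animal. Leaving out any other animal gave between 1 gene (without SP16 animal 2) and 10 genes (without SP16 animal 1). Without SP4 animal 2, 5 genes were called, 4 of them among the 8, and without SP4 animal 3, 5 genes were called, all among the 8.

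**Figure D3:**
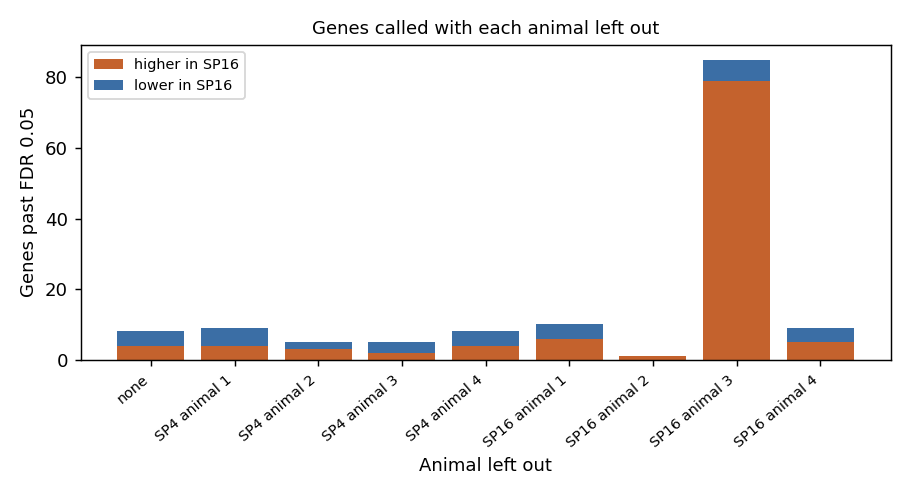
Number of genes past FDR 0.05 (y axis, from 0) in the fit of all 8 animals (none) and with each animal left out in turn (x axis), stacked as higher and lower in SP16. Leaving out SP16 animal 3 gives 85 genes, of which 79 are higher in SP16, against 1 to 10 genes for any other animal.

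The 79 genes had been called with SP16 animals 1, 2 and 4, and SP16 animal 3 did not enter that fit. It was, however, singled out among the left-out fits, where its removal raised the calls from 8 to 85. Genes called only in its absence can favour those in which it lies low. Its standing in them is therefore set in part by this choice and is given as a description. In that animal, 74 of the 79 stood below all of the other SP16 animals. Over the 12434 genes tested with all 8 animals, SP16 animal 3 was the lowest of its group in 3040. Of the 79 genes, 27 were not among these 12434, so the 2 counts are not over like sets. SP16 animal 3 lay above every SP4 animal in 32 of the 79, within the SP4 range in 37 and below every SP4 animal in 10. How often it lay above every SP4 animal over all genes was not counted, so the 32 cannot be set against that share. The levels in SP16 animals 1, 2 and 4 are set by the choice of genes, which also widens their gap to the animal left out, and the following values are a description. On the log2(CPM + 1) scale relative to the SP4 mean, the median of the 79 genes was 1.43 in SP16 animal 1 and 1.61 in animal 2, with animal 4 between them, but 0.26 in SP16 animal 3. The same median over all tested genes was 0.01 in each SP16 animal. Summed over the 79 genes, SP4 animals held 3281 to 4119 CPM, SP16 animals 1, 2 and 4 held 7473 to 7688 CPM, and SP16 animal 3 held 4613 CPM. The 6 lower genes behaved otherwise, with SP16 animal 3 below every SP4 animal in all 6.

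**Figure D4:**
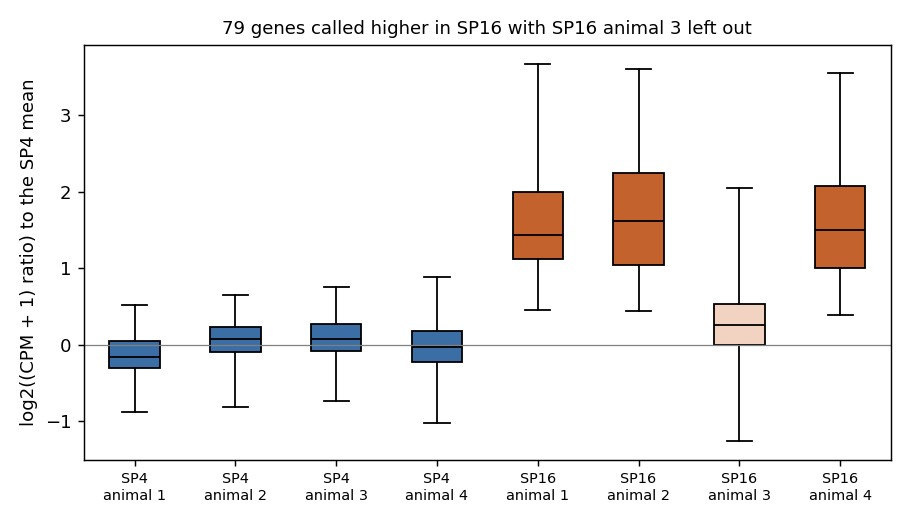
Log2 ratio of CPM + 1 to the SP4 mean (y axis) for the 79 genes called higher in SP16 with SP16 animal 3 left out, as a box per animal (median and quartiles, whiskers to the lowest and highest gene). The boxes of SP16 animals 1, 2 and 4 have medians of 1.43 to 1.61, which the choice of genes sets, while SP16 animal 3 (pale box) has a median of 0.26. SP16 animal 3 did not enter the fit, but was singled out for the calls gained by leaving it out.

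Many of the 79 genes were of low level in SP4. Their median SP4 mean was 8.33 CPM and the highest was 1340 CPM, and 10 of them had an SP4 mean under 1 CPM. Of the 79, 27 had been removed by the low-count filter when all 8 animals were fitted. Choosing genes higher in SP16, with a filter that let in these 27, can itself favour a low SP4 level. The SP4 level was not compared with that of all genes in the same fit, so it is given as a description. The other 52 of the 79 all had a positive log2 fold change with all 8 animals, with a median of 1.09. Of these 52, 43 were called by the exact test on all 8 animals. Every animal but SP16 animal 3 was shared with the fit that chose the genes. The signs and calls are therefore set in large part by that choice and are given as a description. Over all genes SP16 animal 3 differed from its group mainly in direction. It had the largest gene count of its group, its median absolute log2 difference from the other SP16 animals over 12434 genes was 0.18, as in SP16 animal 1 at 0.18, and the number of genes more than 2-fold away from them was 192, between 141 and 221 in the other SP16 animals. Of the 192, 153 were lower in animal 3 and 39 higher, the most lower and the fewest higher of the 8 animals. It also had the lowest percentage of aligned reads in genes (16.9%), the lowest share in the 10 most abundant genes (39.2%) and the highest TMM factor (1.05) of the SP16 animals. Which cells or what tissue composition went with this difference was not tested.

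Where the other left-out animals gave calls, the left-out animal mostly followed them. The left-out animal lay beyond the whole opposite group for 9 of 9 genes called without SP4 animal 1, for 8 of 8 without SP4 animal 4 and for 8 of 10 without SP16 animal 1. For SP16 animal 3 this held for 38 of 85 genes. The 8 genes called with every animal separate the groups, so that for them this was known beforehand. They made up 6 of the 9, 6 of the 8 and 5 of the 10 genes, but 8 of the 85. The counts are therefore not a like comparison and are given as a description. Over all tested genes, 6.68% had every animal of one group beyond every animal of the other. That is a stricter measure than the place of 1 left-out animal, and so is not a background for these counts. How often 1 animal lay beyond the whole opposite group over all genes was not counted.

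The 8 genes called in SP were also read in the LP animals, on a separate TMM scale set over all 16 animals. Libraries of LP4 animals 2 and 3 stand apart from the rest of the series (52.6% of aligned reads fell in genes in LP4 animal 3 and 31.0% in LP4 animal 2 without its repeat library, against 17.8% and 16.8% in LP4 animals 1 and 4), so that the LP values are given as a description. ENSOARG00000010858 was at 12.2 ± 3.61 CPM in SP4 and 43.5 ± 8.24 CPM in SP16 on this scale, below 121, 179, 191 and 891 CPM in the LP4 animals and 77.2 to 191 CPM in the LP22 animals. It was therefore lower in every SP animal than in any LP animal, also at its higher level in SP16. ENSOARG00000010135 had means of 33.4 ± 4.56 CPM in the SP4 and 16.5 ± 0.752 CPM in the SP16 animals, against 63.5 to 98.7 CPM in LP22 and 13.7 to 69.0 CPM in LP4, where the LP4 animals overlapped the SP range.

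ENSOARG00000013521 was at 37.4 to 46.1 CPM in LP22, where SP4 was at 36.7 to 45.6 CPM and SP16 at 63.8 to 72.2 CPM. LP4 animals 1, 2 and 4 were at 41.7 to 54.9 CPM, and LP4 animal 3 was at 218 CPM. ENSOARG00000000131 ranged from 32.7 to 55.9 CPM in LP22 and from 34.3 to 38.1 CPM in LP4 animals 1, 2 and 4, with 1.44 CPM in LP4 animal 3. The SP16 animals, at 25.1 to 31.9 CPM, were below all of these other than LP4 animal 3.

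**Figure D5:**
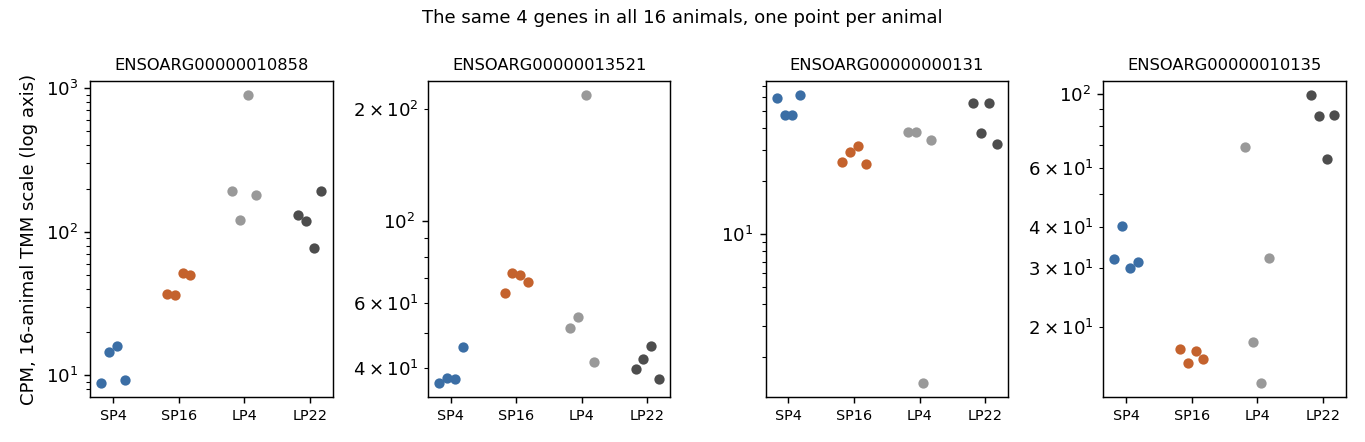
CPM on the TMM scale of all 16 animals (y axis, log scale) for the same 4 genes in SP4, SP16, LP4 and LP22, with 1 point per animal. The SP4 and SP16 points are separate in each panel, and ENSOARG00000010858 is higher in every LP animal (77.2 CPM and above) than in any SP animal.

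The change with duration was set beside that in LP, which used other animals. Of the 8 genes, 2 had the same sign in LP22 minus LP4 and 6 the opposite sign, and none of these LP changes passed the test. The difference between the SP and LP changes was tested as an interaction in the 16-animal fit. None of the 8 genes passed (FDR 0.05), and 6 had an unadjusted p under 0.05. Because the 8 genes were chosen for their SP change, which is part of the interaction, their share of low p is raised by that choice and is not read as a result. Over all 13299 genes of that fit, 1 passed and 1576 had an unadjusted p under 0.05. For ENSOARG00000010858 the SP change exceeded the LP change by 3.27 on the log2 scale (SE 0.73, edgeR FDR = 0.362). The spread of that fit includes the LP4 libraries, with a common biological coefficient of variation of 0.360 against 0.140 in the 8 SP animals. In the same fit the SP change of this gene had a log2 fold change of 1.85 (SE 0.53) and none of the 13299 genes passed for SP16 minus SP4 (edgeR, lowest FDR 0.493), while 292 had an unadjusted p under 0.05.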

How the data were processed

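RNA-seq read counts of the SP4 and SP16 animals were analysed. The deposited files hold unnormalized counts of reads in each gene. Per the labels, the authors' notes name Bowtie, HTSeq and the sheep build Oar_v3.1, and the methods add SAMtools and edgeR. Tool versions, strand setting and annotation release are not given in the sources used here, so overlapping and antisense genes cannot be told apart. Each file listed 25197 Ensembl IDs and 5 summary lines, which were left out (reads in no gene were 81.5% to 84.1% of aligned reads). The files do not pair IDs with names and 0 IDs matched the reference gene table. The gene lists, marker lists and every part of the naming rule that needs a symbol were therefore not used, and no sequence or position is given. By the naming rule, IDs were printed only for genes past FDR 0.05, at most 2 higher and 2 lower, those with the lowest p.

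Libraries of SP4 animal 1 were summed. With edgeR 4.0.16 in R 4.3.3, genes were kept by filterByExpr (at least 10 counts, and 15 in total), TMM-scaled, and tested 2-sided with glmQLFit and glmQLFTest on the 8 animals, with Benjamini-Hochberg adjustment over all tested genes. SEs were derived from the F statistic. CPM is per 1000000 counts of the TMM-scaled library, and log2 CPM in correlations used a prior count of 2. Tested genes held 98.8% to 99.0% of gene counts. The labels number samples and each was taken as 1 animal, so p-values measure the spread between these samples. DESeq2 1.42.0, limma 3.58.1 and the other settings of the closing section were alternatives. The test was checked on simulated data. Permutation tests used scipy 1.17.1 and figures matplotlib 3.10.9 in Python 3.11.15. The comparison, its settings and the animals examined singly were chosen with earlier results of these data known. The 12-animal fit and the exact test without SP16 animal 3 were chosen after seeing the data.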

Additional observations from a re-analysis of the deposited data

Results flagged for a closer look

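In 16 groups of 4 values examined (the 4 printed genes and 4 library measures in SP4 and SP16), 2 held a value far from the other animals of its group by Dixon's test; chance gives about 1 in 20. ENSOARG00000013521 stood at 48.1 CPM in SP4 animal 4, against 38.6 to 39.7 CPM in the other SP4 animals, and this value was still below the lowest SP16 animal (67.4 CPM). The flag rests on the summed value of SP4 animal 1 (38.6 CPM), whose first and repeat libraries, scaled singly, stood at 54.9 and 30.8 CPM. The total gene count of SP4 animal 1, 5850281, lay above the 2008884 to 2334377 of the other SP4 animals because its first and repeat libraries were summed.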

How the results depend on the processing

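The count of genes past FDR 0.05, 8 with all settings as reported, stayed at 8 with RLE or upper-quartile scaling, and was 11 where the filter was a mean of 1 CPM or more and 10 with the first library of SP4 animal 1 alone. It rose to 38 with a robust fit (26 higher, 12 lower), 73 with DESeq2 (54 and 19), 145 with the edgeR exact test (100 and 45) and 152 with no filter on low counts (110 and 42). It fell to 5 with the repeat library of SP4 animal 1 alone, to 5 with a log2 fold change of at least 1, to 4 with limma-voom, to 5 with SP4, SP16 and LP22 in the fit, and to 0 with all 16 animals in the fit. Leaving out each animal in turn gave 1 to 85 genes, and the exact test without SP16 animal 3 gave 169 (145 higher, 24 lower).

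With the replicate block, 37 genes were called (28 higher, 9 lower). The labels share animal numbers between groups but do not name them as pairs, and the main fit did not take them as pairs. Deviations of same-numbered animals correlated at a mean of 0.04 (range -0.05 to 0.13, other numbers -0.01). Of the 8 animals, 5 correlated best with their own number. Whether same-numbered animals shared a source of spread was not tested.

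Over 22 settings each, the 4 printed genes never changed direction. ENSOARG00000010858 passed in 21, ENSOARG00000013521 in 20, ENSOARG00000000131 in 19 and ENSOARG00000010135 in 19. None passed with all 16 animals, and without SP16 animal 2 ENSOARG00000010858 was the gene that did. The causes of these shifts were not tested. Depth limits the genes of low level most, where the SE is widest.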
